A study of Mus musculus with 29 samples.

Results

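Mucin O-glycans are sugar chains built step by step in the Golgi on serines and threonines of mucins, the proteins that form colonic mucus. GalNAc-transferases place the first sugar, core enzymes then lay down core 1 or core 3 and branch them to core 2 or core 4, and other transferases lengthen and cap the chains with fucose, GalNAc or sialic acid. The colon is known for core 3 and core 4 chains beside core 1 and core 2, and mice without core 1 or core 3 synthesis are known for a thin mucus layer and for sensitivity to colitis. Described here are 10 enzymes of these steps, of 22184 genes that had a probe set of their own on the arrays: Galnt3 and Galnt12 (initiation), C1galt1 and its chaperone C1galt1c1 (core 1), B3gnt6 (core 3), Gcnt3 (core 2 and core 4 branching), B3gnt7 and B3galt5 (extension), and Fut2 and B4galnt2 (capping). They were chosen as a pathway, with earlier results of these data known. Each was read from the probe set that names that gene alone and had the highest mean over all 29 arrays. All 10 had such a probe set, and only B3gnt7 had a second.

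RNA of the distal colon was measured in 29 female C57BL/6 mice aged 18 to 24 weeks. The groups were untreated WT (n = 8), untreated Cygb-/- (n = 8), AOM/DSS-treated WT (n = 8) and AOM/DSS-treated Cygb-/- mice (n = 5). Treated mice had received azoxymethane (AOM), a colon carcinogen, at 7.4 mg/kg, and dextran sulfate sodium (DSS), which injures the colonic epithelium, at 3% for 7 days. The labels give 1 cycle of DSS and killing in week 5, whereas the study's methods give a further cycle and a later week for the array mice, and this was not settled here. Cygb encodes cytoglobin, and the Cygb-/- allele is a deletion of an exon in every cell, made in cells of another mouse strain and brought onto C57BL/6J, with WT and Cygb-/- mice bred as lines from the same founders. The questions were how AOM/DSS changed these enzymes in each genotype and whether the genotypes differed.

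Values are log2 RMA values, so a difference of 1 is a doubling. Array medians lay between 4.76 and 4.88, and the deposited values span 0.72 to 13.47, with no detection call. Cygb was 8.78 ± 0.15 (SD, n = 8) in untreated WT and 6.12 ± 0.17 (SD, n = 8) in untreated Cygb-/- colons, and 9.03 ± 0.29 (SD, n = 8) and 6.30 ± 0.19 (SD, n = 5) after AOM/DSS. In 1 library, AOM/DSS-treated Cygb-/- replicate 3, Xist was 3.82, against 10.64 to 11.15 in the other 28 arrays, while 3 Y-linked genes lay between 1.91 and 2.85 in all arrays, below every array's lower quartile of 3.26 to 3.37. Results that use this library are given with it. Its effect is stated beside each group of them, or the group is said not to have been computed without it.

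In WT mice, 6 of the 10 enzymes were lower and 0 higher after AOM/DSS (limma, adjusted p under 0.05 over 41345 probe sets), where 14.3% of all probe sets were lower and 12.5% higher. The falls were very unequal. B3gnt6 fell by 3.93 on the log2 scale (15.3-fold lower), Gcnt3 by 1.65 (3.13-fold lower) and B4galnt2 by 0.98 (1.97-fold lower), while Galnt12, C1galt1c1 and C1galt1 fell by 0.52, 0.39 and 0.17. Galnt3, B3gnt7, Fut2 and B3galt5 did not pass the test. In Cygb-/- mice 6 were lower and 1 higher, where 13.5% of all probe sets were lower and 12.6% higher, and the largest falls were again those of B3gnt6 (12.7-fold lower), Gcnt3 (3.26-fold lower) and B4galnt2 (2.13-fold lower). Without replicate 3 of the treated Cygb-/- mice these counts were again 6 and 1 (11.6% of all probe sets lower and 11.2% higher), and B3gnt6, Gcnt3, B4galnt2, Galnt12 and B3gnt7 were lower by 3.59, 1.61, 1.01, 0.45 and 0.37 (limma adjusted p from 1.29e-09 to 0.0367), while C1galt1, Fut2 and B3galt5, which did not pass, differed by -0.03, 0.12 and 0.23. In bulk RNA of the colon, fewer cells of a type and less RNA per cell cannot be told apart.

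**Figure D1:**
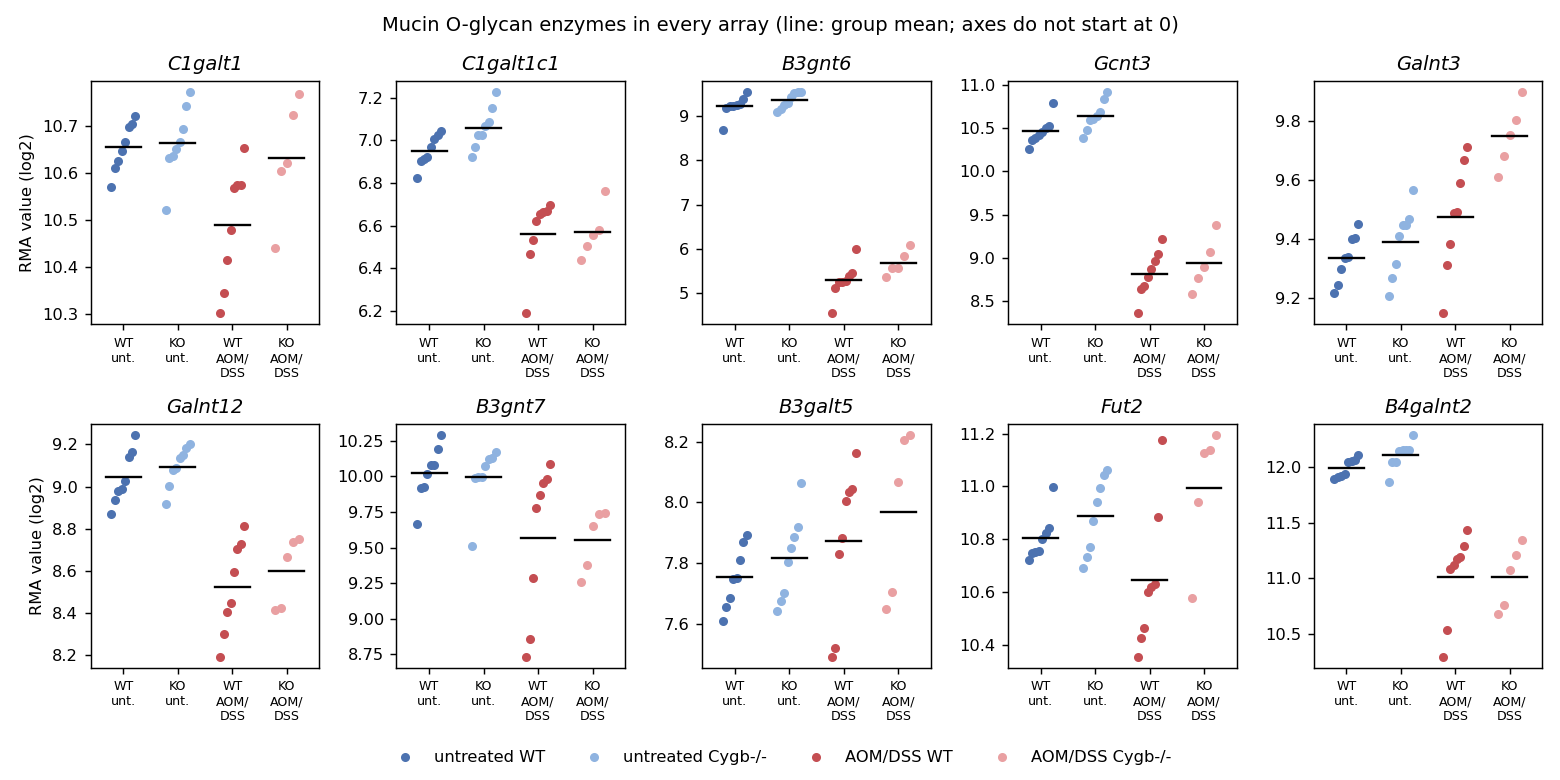
Each point is 1 array's log2 RMA value, sorted within its group (untreated and AOM/DSS-treated WT and Cygb-/-, KO on the axis), and each line a group mean, with vertical axes that do not start at 0. B3gnt6, Gcnt3, B4galnt2, Galnt12 and C1galt1c1 show treated groups wholly below untreated ones in both genotypes, and for B3gnt6 the means went from 9.22 to 5.29 in WT mice.

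Galnt3 and Galnt12 start the chains, each by moving GalNAc onto mucin peptides. Galnt12 values in untreated WT colons ran from 8.87 to 9.24 (median 9.01, n = 8), and after AOM/DSS from 8.19 to 8.81 (median 8.52, n = 8). In Cygb-/- mice the untreated range was 8.92 to 9.20 (median 9.11, n = 8), and the 5 treated arrays read 8.74, 8.67, 8.43, 8.75 and 8.42. In both genotypes every treated array was thus below every untreated array. Galnt12 fell by 0.52 (standard error 0.09, limma adjusted p = 0.000337) in WT mice and by 0.50 (standard error 0.08, adjusted p = 0.000257) in Cygb-/- mice. Galnt3 went the other way. Its values were 9.22 to 9.45 (median 9.33) in untreated WT, 9.15 to 9.71 (median 9.49) in treated WT, and 9.21 to 9.57 (median 9.43) in untreated Cygb-/- colons. The treated Cygb-/- arrays read 9.68, 9.80, 9.90, 9.75 and 9.61, all above the untreated ones, whereas the WT groups overlapped. Galnt3 rose by 0.36 (standard error 0.07, limma adjusted p = 0.00211) in Cygb-/- mice, and by 0.32 (adjusted p = 0.00786) without replicate 3. In WT mice its difference was 0.14 (standard error 0.08, adjusted p = 0.195). Within arrays, Galnt12 moved down against Galnt3 by 0.66 in WT and by 0.85 in Cygb-/- mice, with no overlap between the groups (two-sided exact permutation test, p = 0.000155 and p = 0.000777, the smallest each design can give, among 12 such tests). Without replicate 3 the latter was lower by 0.77 (exact permutation p = 0.00202).

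C1galt1 adds galactose to the first GalNAc to make core 1, and C1galt1c1 (Cosmc) is the chaperone it needs to fold. C1galt1 was 10.57 to 10.72 (median 10.66) in untreated and 10.30 to 10.65 (median 10.52) in treated WT colons, where 5 of 8 treated arrays lay below the lowest untreated one. In Cygb-/- mice it was 10.52 to 10.77 (median 10.66) without treatment, and the treated arrays read 10.72, 10.77, 10.62, 10.60 and 10.44, within or just below that range. C1galt1 fell by 0.17 in WT mice (standard error 0.06, limma adjusted p = 0.041), a call lost in 10 of 16 fits that left out 1 array (adjusted p from 0.0217 to 0.0741), and its sign turned to 0.17 when arrays were centred on 10 epithelial markers. One of these is Cdx2, and without Cdx2 in the centring the difference was -0.06 (adjusted p = 0.524). In Cygb-/- mice the difference was -0.03 (standard error 0.07, adjusted p = 0.775). C1galt1c1 lies on chromosome X. Its values were 6.82 to 7.05 (median 6.94) in untreated and 6.19 to 6.70 (median 6.64) in treated WT colons. They were 6.92 to 7.23 (median 7.05) in untreated Cygb-/- colons, and 6.76, 6.58, 6.56, 6.50 and 6.44 in the treated ones. The treated and untreated groups did not overlap in either genotype. It fell by 0.39 (standard error 0.07, limma adjusted p = 0.000536) in WT and by 0.49 (standard error 0.07, adjusted p = 0.000116) in Cygb-/- mice, and by 0.49 (adjusted p = 0.000474) without replicate 3, the library low in Xist.

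B3gnt6 makes core 3 by adding GlcNAc to the first GalNAc. Of the 10 enzymes it had the largest change in both genotypes. Values were 8.69 to 9.54 (median 9.24) in untreated and 4.55 to 5.99 (median 5.27) in treated WT colons. In Cygb-/- colons they were 9.09 to 9.54 (median 9.36) without treatment and 5.84, 5.56, 5.38, 6.09 and 5.56 after it. The treated arrays lay between 4.55 and 6.09, where array medians were 4.76 to 4.88, and the highest of them was far below the lowest untreated array. B3gnt6 fell by 3.93 (standard error 0.15, limma adjusted p = 4.55e-11) in WT and by 3.66 (standard error 0.12, adjusted p = 2.73e-10) in Cygb-/- mice. Gcnt3, which branches core 1 to core 2 and core 3 to core 4, went from 10.26 to 10.79 (median 10.44) in untreated to 8.36 to 9.21 (median 8.82) in treated WT colons. In Cygb-/- colons it went from 10.39 to 10.92 (median 10.62) to 9.38, 9.07, 8.58, 8.90 and 8.77. Again no treated array reached an untreated one. Gcnt3 fell by 1.65 (standard error 0.11, limma adjusted p = 8.26e-09) in WT and by 1.70 (standard error 0.12, adjusted p = 3.88e-07) in Cygb-/- mice.

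Relative to the core 1 enzyme of the same array, both fell. C1galt1 itself differed by only -0.17 in WT and -0.03 in Cygb-/- mice, so the ratios to it largely restate the falls given above. B3gnt6 moved down against C1galt1 by 3.77 on the log2 scale (13.6-fold) in WT and by 3.63 (12.4-fold) in Cygb-/- mice, and Gcnt3 by 1.48 (2.79-fold) and by 1.67 (3.18-fold). The ratio of B3gnt6 to Gcnt3 fell by 2.29 in WT and by 1.96 in Cygb-/- mice. In each of these 6 comparisons the groups did not overlap (two-sided exact permutation test, p = 0.000155 in WT and p = 0.000777 in Cygb-/- mice, the smallest each design can give). Without replicate 3 of the treated Cygb-/- mice these 3 falls were 3.56, 1.58 and 1.97, again with no overlap (exact permutation p = 0.00202 each, the smallest possible). Such a ratio shows an unequal change of both genes and does not compare their levels, since probe sets differ in brightness.

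B3gnt7 lengthens chains by adding GlcNAc to galactose. Its values were 9.66 to 10.29 (median 10.05) in untreated and 8.74 to 10.09 (median 9.82) in treated WT colons. In Cygb-/- colons they were 9.51 to 10.17 (median 10.04) without treatment and 9.73, 9.75, 9.26, 9.65 and 9.38 after it. The groups overlapped in both genotypes, with 3 of 8 treated WT and 2 of 5 treated Cygb-/- arrays below the lowest untreated array. The difference was -0.45 (standard error 0.19, limma adjusted p = 0.0821) in WT mice. In Cygb-/- mice B3gnt7 fell by 0.45 (standard error 0.12, adjusted p = 0.0111), a call lost in a fit of all 4 groups (adjusted p = 0.0708, range over the alternatives 0.00101 to 0.641). Its second, dimmer probe set, with a mean of 5.09, differed by -0.09 (adjusted p = 0.791) in WT and by -0.13 (adjusted p = 0.405) in Cygb-/- mice, so the 2 probe sets did not give the same size of change.

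B3galt5 adds galactose to terminal GlcNAc to make type 1 chains. It ranged from 7.61 to 7.89 (median 7.75) in untreated and from 7.49 to 8.16 (median 7.94) in treated WT colons. In Cygb-/- colons it ranged from 7.64 to 8.06 (median 7.83) untreated and read 8.21, 8.22, 7.65, 8.07 and 7.70 after treatment. The groups overlapped, and the treated ones were spread more widely. Differences were 0.12 (standard error 0.09, limma adjusted p = 0.377) in WT and 0.15 (standard error 0.11, adjusted p = 0.368) in Cygb-/- mice.

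Fut2 adds the fucose of the H antigen, and B4galnt2 adds the GalNAc of the Sda (Cad) antigen. Fut2 values were 10.72 to 11.00 (median 10.78) in untreated and 10.36 to 11.18 (median 10.61) in treated WT colons. In Cygb-/- colons they were 10.69 to 11.06 (median 10.90) untreated and 11.19, 11.13, 10.94, 11.14 and 10.58 after treatment. In treated WT mice 6 of 8 arrays lay below the lowest untreated array and 1, replicate 8, above the highest, while 3 of 5 treated Cygb-/- arrays lay above all untreated ones. The differences were -0.16 (standard error 0.10, limma adjusted p = 0.248) in WT and 0.11 (standard error 0.11, adjusted p = 0.518) in Cygb-/- mice. Without replicate 8 of the treated WT mice, Fut2 was lower by 0.24 with a limma adjusted p of 0.0292. Over the alternatives the adjusted p ran from 0.00373 to 0.742. The lowest came from a permutation test against goblet cell markers without Retnlb (described below), where Fut2 was higher by 0.31.

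B4galnt2 was 11.89 to 12.11 (median 11.99) in untreated and 10.30 to 11.43 (median 11.15) in treated WT colons. In Cygb-/- colons it was 11.86 to 12.29 (median 12.15) untreated and 11.21, 11.08, 10.68, 11.34 and 10.76 after treatment. No treated array reached the untreated range in either genotype. It fell by 0.98 (standard error 0.13, limma adjusted p = 3.43e-05) in WT and by 1.09 (standard error 0.11, adjusted p = 5.37e-06) in Cygb-/- mice. Against Fut2 of the same array it moved down by 0.82 in WT and by 1.20 in Cygb-/- mice, with no overlap (two-sided exact permutation test, p = 0.000155 and p = 0.000777), and by 1.13 in Cygb-/- mice without replicate 3 (exact permutation p = 0.00202).

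Of the 3 enzymes that fell most in WT mice, B4galnt2 had a promoter in the RefSeq table used (GRCm38.p6), where 5 of the 10 enzymes matched. Part of it is shown because Cdx2 and Cdx1, homeobox factors of intestinal identity that bind TTTAT, were lower in the same arrays (Cdx2 by 2.45 in WT and by 2.11 in Cygb-/- mice). The letters are the 161 bases of the 250-base window farthest from the table's start, and the 89 bases next to that start are left out because a longer transcript model reaches over them. They run 5′ to 3′ on the minus strand at chr11:95914961-95915121, and capitals mark TTTAT read on the opposite strand.
B4galnt2: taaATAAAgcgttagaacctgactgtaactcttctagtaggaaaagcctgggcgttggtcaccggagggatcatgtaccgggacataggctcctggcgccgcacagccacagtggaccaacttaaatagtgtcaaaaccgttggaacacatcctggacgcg
In windows of 250 bases before a start, on either strand, TTTAT occurred in 37.3% of all 32851 windows. It occurred in the windows of B4galnt2 and B3gnt7 and in 2 of 3 windows of B3galt5, and not in those of C1galt1 and Galnt3. CAGCTG, an E-box that ATOH1 can bind, and CAAAGTCCA, an HNF4A motif, occurred in 13.0% and 0.384% of all windows and in 0 of the 7 windows of these enzymes. These are matches of letters, not shown to be sites, and the part of Cdx2 or Cdx1 in the enzymes' changes was not tested.

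**Figure D2:**
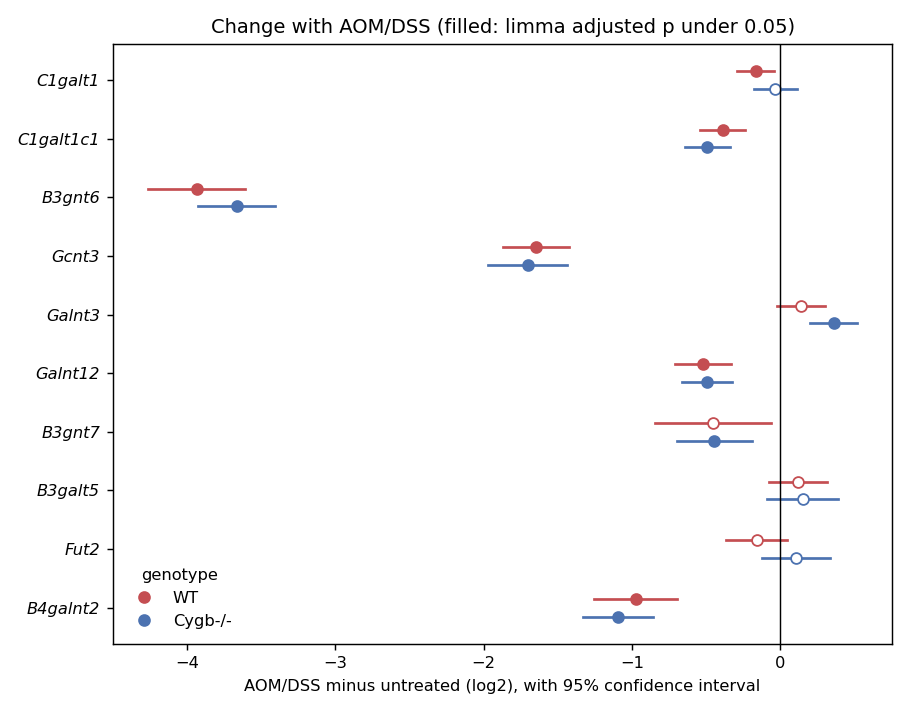
Points are log2 differences between AOM/DSS-treated and untreated colons in WT and Cygb-/- mice, with 95% confidence intervals, and filled points passed limma's test. B3gnt6, at -3.93 and -3.66, lies apart from the other enzymes, and Galnt3, at 0.14 and 0.36, has a filled point above 0 in Cygb-/- mice alone, a difference between genotypes that did not pass the interaction test.

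As a group, the 10 enzymes had a median log2 difference of -0.42 in WT and -0.47 in Cygb-/- mice, beside -0.04 in both for all probe sets. In WT mice 5 enzymes had treated arrays wholly below the untreated ones, which held for 4.45% of all probe sets, and 0 had them wholly above (4.05%). In Cygb-/- mice 5 were wholly below (7.42%), and Galnt3 was wholly above (7.58%), the same enzymes as without replicate 3.

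No enzyme passed a test between the genotypes. In untreated colons 0 of 10 passed the test between Cygb-/- and WT mice, where 0.0218% of all probe sets did, and their differences lay between -0.02 and 0.18. The highest was that of Gcnt3, which averaged 10.64 ± 0.17 (SD, n = 8) without and 10.46 ± 0.16 (SD, n = 8) with cytoglobin, the 1 enzyme with an unadjusted limma p under 0.05 (adjusted p = 0.705). In inflamed colons 0 of 10 passed (0.167% of all probe sets), with differences from -0.02 to 0.40, and 2 had an unadjusted p under 0.05. Galnt3 was higher in Cygb-/- colons by 0.28 (95% confidence interval 0.07 to 0.48, limma adjusted p = 0.367) and Fut2 by 0.35 (0.05 to 0.65, adjusted p = 0.445), and 5 of 5 and 4 of 5 arrays, respectively, exceeded the median of the inflamed WT group. B3gnt6 averaged 5.69 ± 0.28 (SD, n = 5) in the Cygb-/- and 5.29 ± 0.40 (SD, n = 8) in the WT group, a difference of 0.40 (-0.01 to 0.80, adjusted p = 0.521). Without replicate 3 these 3 differences were 0.24, 0.36 and 0.48, and again 0 enzymes passed, as for the interaction that follows. The methods' t-test with the 1.5-fold filter could call no enzyme in either comparison, since the largest folds were 1.13 (untreated) and 1.32 (inflamed). It therefore decides nothing here. For the interaction, whether AOM/DSS acted differently by genotype, 0 of 10 passed (0.148% of all probe sets) and 1 had an unadjusted p under 0.05, Galnt3 at 0.22 (0.01 to 0.44, adjusted p = 0.605). For B3gnt6 it was 0.27 (-0.16 to 0.70), for Gcnt3 -0.06 (-0.40 to 0.28) and for B4galnt2 -0.12 (-0.49 to 0.26). Differences within these intervals remain compatible with the data.

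Markers of other cells moved in the same arrays. Of 10 goblet cell markers, 8 were lower and 1 higher in each genotype, with medians of -0.48 (WT) and -0.62 (Cygb-/-). The list's mean value went from a range of 10.95 to 11.48 to one of 10.30 to 10.98 in WT colons, and from 11.32 to 11.65 to 10.55 to 10.97 in Cygb-/- colons. Of 10 epithelial markers 3 were lower in each genotype, with medians of -0.06 and -0.09, although Cdx2 and Cdx1 (lower by 0.44 and 0.59) are among them, and the list's mean went from 10.59 to 10.72 down to 10.16 to 10.46 in WT mice, and from 10.60 to 10.73 down to 10.24 to 10.38 in Cygb-/- mice. Of 9 markers of absorptive colonocytes 6 were lower in WT and 7 in Cygb-/- mice, with medians of -0.76 and -1.59 (-1.35 without replicate 3). The list's mean averaged 11.32 in untreated and 10.51 in treated WT colons, and 11.37 and 10.03 in Cygb-/- colons. All 10 neutrophil markers were higher, by medians of 2.52 and 4.02, as were 8 of 9 lymphocyte markers, while all 10 smooth muscle markers were lower. Of 9 squamous markers 4 were higher in WT mice, and 5 were higher and 1 lower in Cygb-/- mice. The list's mean ranged from 4.37 to 7.06 in treated and from 4.12 to 6.49 in untreated WT colons, and from 4.71 to 6.09 in treated and 4.02 to 4.38 in untreated Cygb-/- colons. Hoxd13, a gene of the most distal gut, was higher by 1.46 in WT and 1.75 in Cygb-/- mice, while the other 2 measured distal markers, Hoxa13 and Hoxb13, did not pass the test. Without replicate 3 of the treated Cygb-/- mice, 0 goblet cell markers were higher, 2 epithelial markers were lower, 7 lymphocyte markers were higher, and 3 squamous markers were higher and 0 lower, while the other counts of these lists were kept. The part of the absorptive colonocyte, squamous, immune, muscle and distal markers in the enzymes' changes was not tested.

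Against the goblet cell markers of the same array, B3gnt6 was lower by 3.48, Gcnt3 by 1.19 and B4galnt2 by 0.52 in WT mice (two-sided exact permutation test, p = 0.000155, p = 0.000155 and p = 0.000466), and by 3.01, 1.05 and 0.44 in Cygb-/- mice (p = 0.000777 each). Among the 40 such tests, over 10 enzymes, 2 genotypes, and the goblet cell and the epithelial mean, these 3 enzymes were lower against either mean in both genotypes. No enzyme was set against the absorptive colonocyte mean, which fell more than either of these, so a change beyond that list was not tested. Galnt12 and C1galt1c1 differed from the goblet cell mean in WT mice by -0.07 (exact permutation p = 0.493) and 0.06 (exact permutation p = 0.648), neither of which passed 0.05, and in Cygb-/- mice by 0.16 (exact permutation p = 0.00311) and 0.16 (exact permutation p = 0.0676). The goblet cell list holds Retnlb, which fell by 1.83 in Cygb-/- mice and differed by -0.25 in WT mice (limma adjusted p = 0.0136 and 0.783). In untreated colons Retnlb was already higher in Cygb-/- than in WT mice, by 2.38. That difference did not pass limma's test here, though the study lists Retnlb as higher there by its own test. The mean of the goblet cell list averaged 11.46 in untreated Cygb-/- and 11.16 in untreated WT colons. Without Retnlb in the mean, Galnt12 and C1galt1c1 differed from it in Cygb-/- mice by 0.03 and 0.03 (exact permutation p = 0.606 and 0.727), and B3gnt6, Gcnt3 and B4galnt2 were lower by 3.14, 1.18 and 0.57 (exact permutation p = 0.000777 each). When whole arrays were centred on the epithelial markers, Galnt12 and C1galt1c1 lost their calls in WT (limma adjusted p = 0.0597 and 0.617) and in Cygb-/- mice (0.117 and 0.121). With Cdx2 left out of the centring both kept their calls, in WT (adjusted p = 0.00174 and 0.0128) and in Cygb-/- mice (0.00567 and 0.00414). Galnt3 was higher against the goblet cell mean by 0.59 and 1.01, B3galt5 by 0.57 and 0.80, Fut2 by 0.29 and 0.76, and C1galt1 by 0.28 and 0.62, in WT and Cygb-/- mice (exact permutation p from 0.000155 to 0.00715). Without Retnlb these differences in Cygb-/- mice were 0.88, 0.67, 0.63 and 0.49. Without replicate 3 of the treated Cygb-/- mice, B3gnt6 fell by 2.97, Gcnt3 by 1.002 and B4galnt2 by 0.40 against the full goblet cell mean, and Galnt3, B3galt5, Fut2 and C1galt1 were higher by 0.93, 0.84, 0.73 and 0.58 (exact permutation p = 0.00202 each, the smallest possible). Galnt12 was then higher by 0.16 (exact permutation p = 0.00606).

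Other genes of the pathway are given by lists, whose counts stand beside 14.3% lower and 12.5% higher for all probe sets in WT mice, and 13.5% and 12.6% in Cygb-/- mice. Of 16 further GalNAc-transferases 6 were lower and 2 higher in WT mice, and 7 lower and 3 higher in Cygb-/- mice. Galnt10 was lower by 0.79 and 0.61, Galnt6 by 0.62 and 0.88, and Galnt4 by 0.39 and 0.32, whereas Galnt2 was higher by 0.47 and 0.76 (WT and Cygb-/- mice, each past limma's threshold). The list median was -0.16 in WT and -0.15 in Cygb-/- mice. Of 15 other branching and extension enzymes 2 were lower and 3 higher in each genotype. B4galt4, a galactosyltransferase, was lower by 1.04 and 1.13, and B3gnt8 and B4galt1 were higher by 0.69 and 0.38, and by 0.36 and 0.43. Of 6 other fucosyl and blood group transferases 2 were lower and 0 higher in each genotype. A4gnt, which caps chains with GlcNAc in an alpha link and is known from gastric mucins, was lower by 1.81 and 2.27, from 8.43 to 6.62 in WT mice. In these 3 lists no count changed without replicate 3 of the treated Cygb-/- mice.

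Genes that supply sulfate and sugars were more often lower than higher. Of 10 measured sulfation genes 7 were lower and 1 higher in WT mice and 6 were lower and 0 higher in Cygb-/- mice, among them Papss2 (by 0.63 and 0.75) and Papss1 (by 0.50 and 0.80), which make the sulfate donor, and Chst4 (by 0.71 and 0.46), a GlcNAc sulfotransferase. Of 19 sugar nucleotide genes 8 were lower and 0 higher in WT mice, and 11 were lower and 1 higher in Cygb-/- mice. Slc35d1, a Golgi and ER nucleotide sugar carrier, was lower by 1.41 and 1.63, Slc35a1, the CMP-sialic acid carrier, by 0.61 and 0.60, and Gfus, which makes GDP-fucose, by 0.48 and 0.69. Of 10 sialyltransferases 2 were lower and 0 higher in WT mice, and 3 lower and 3 higher in Cygb-/- mice. St3gal4 fell by 0.55 in WT and by 3.43 in Cygb-/- mice, the 1 sialyltransferase past the interaction test (limma adjusted p = 3.88e-08). Of the 19 sugar nucleotide genes 1 passed that test too (0.148% of all probe sets). Between inflamed Cygb-/- and WT colons 1 sialyltransferase was lower and 1 higher (0.167% of all probe sets in either direction). Of 9 measured mucins 5 were lower and 1 higher in WT mice, and 4 lower and 1 higher in Cygb-/- mice. Muc2, the gel-forming colonic mucin that carries these chains, fell by 0.47 and 0.49, Muc3a by 1.79 and 2.13, and Muc1 rose by 1.28 and 0.87. Without replicate 3 of the treated Cygb-/- mice, 9 sugar nucleotide genes were lower and 2 sialyltransferases higher, and the other treatment counts of these 4 lists were kept. Muc1 then rose by 0.67, and St3gal4 fell by 3.64 (interaction, limma adjusted p = 1.52e-09). The counts between inflamed genotypes were not made without it.

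**Figure D3:**
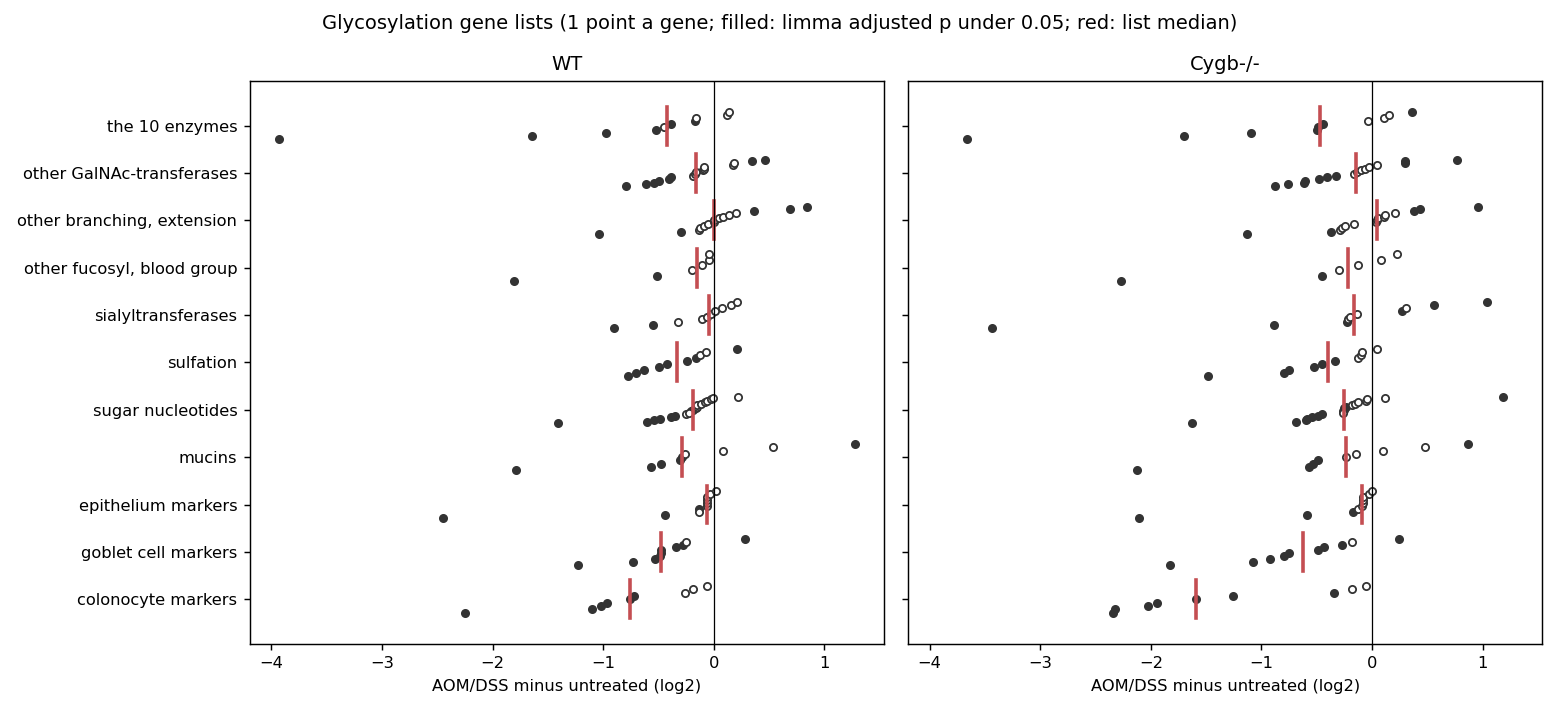
Each point is 1 gene's log2 difference between AOM/DSS-treated and untreated colons (left WT, right Cygb-/-), filled where limma's adjusted p was under 0.05, and red bars are list medians. The median of the 10 enzymes (-0.42 and -0.47) lies beside those of the goblet cell markers (-0.48 and -0.62), and the epithelial markers lie near 0 apart from Cdx2 (-2.45 and -2.11) and Cdx1 (-0.44 and -0.59).

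Within groups the enzymes varied together in part. After each group's mean was subtracted, 38 of the 45 pairs of enzymes had a positive Pearson correlation over the 29 arrays, with a median of 0.46, and 21 were over 0.5. The highest was that of B4galnt2 and Galnt12, at 0.84, and 4 pairs lay under -0.3, each of them with Galnt3. Without replicate 3 of the treated Cygb-/- mice 38 pairs were positive, with a median of 0.43, 20 were over 0.5, B4galnt2 and Galnt12 stood at 0.83, and 1 pair lay under -0.3. The correlations are a description over arrays that also share shifts in cell markers. Among treated WT arrays, replicate 3 held the lowest B3gnt6 (4.55), Gcnt3 (8.36), B4galnt2 (10.30) and Galnt12 (8.19) values. It also had the lowest goblet cell (10.30), smooth muscle (9.67) and lymphocyte (7.44) means, while replicate 5 had the lowest absorptive colonocyte mean (9.90). Replicate 4 held the highest B3gnt6 (5.99), Gcnt3 (9.21), B4galnt2 (11.43), B3gnt7 (10.09) and Galnt12 (8.81) values. Its goblet cell (10.98) and absorptive colonocyte (10.97) means were also the highest. Over the 29 arrays, with group means subtracted, the goblet cell mean correlated with B4galnt2 at 0.74, B3galt5 at 0.70 and C1galt1 at 0.66. It correlated with B3gnt6 at 0.35, Galnt3 at -0.03 and C1galt1c1 at 0.04. Without replicate 3 of the treated Cygb-/- mice these values were 0.73, 0.69, 0.66, 0.32, 0.02 and 0.03. With all 29 arrays, the absorptive colonocyte mean correlated with B4galnt2 at 0.72, B3gnt7 at 0.71, B3galt5 at 0.63 and Gcnt3 at 0.62. It correlated with Galnt12 at 0.55, B3gnt6 at 0.52, C1galt1 at 0.24, Fut2 at 0.20, C1galt1c1 at -0.19 and Galnt3 at -0.58. Galnt3 correlated with the smooth muscle mean at -0.67. These absorptive colonocyte and smooth muscle correlations were not computed without replicate 3 of the treated Cygb-/- mice. That array had the lowest absorptive colonocyte (9.25) and smooth muscle (9.36) means of all arrays, and the highest Galnt3 value (9.90). How far the correlations rest on it was not tested.

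**Figure D4:**
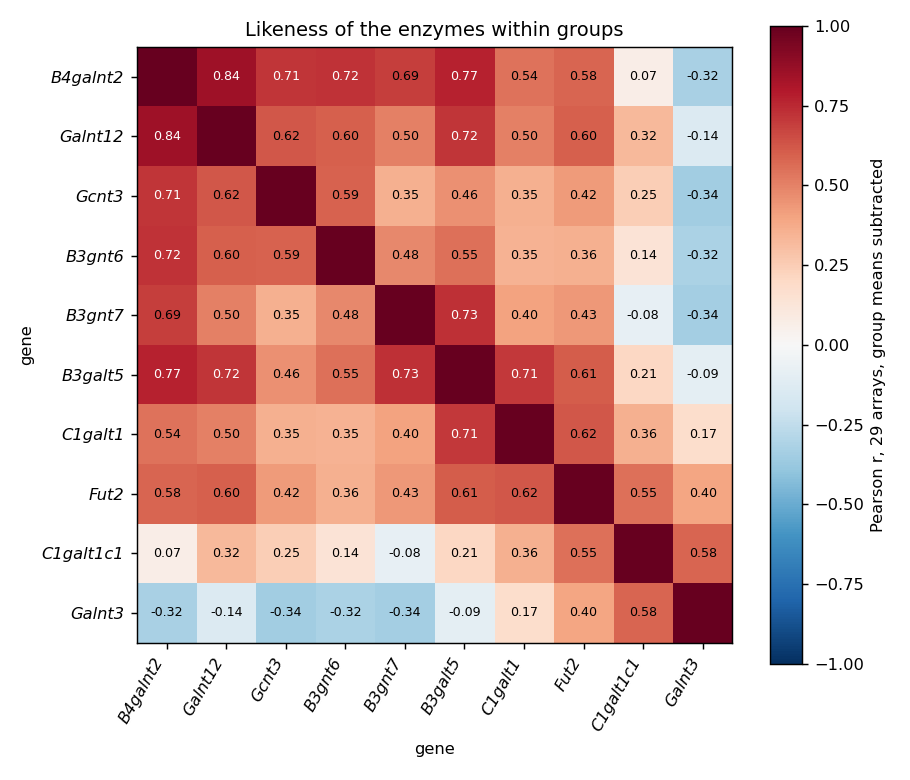
Colours and numbers give Pearson's r between pairs of enzymes over 29 arrays after group means were subtracted. B4galnt2 and Galnt12 (0.84) head a block of positive values, and the 4 pairs under -0.3 are all with Galnt3.

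Of the 22183 other genes compared over the 29 arrays in this way, those most like each enzyme are named next. B4galnt2 was closest to Gucy2c, the guanylin receptor (r = 0.93), Adgrg7 (0.91) and Hgfac (0.90), and B3gnt7 to Klf4, a transcription factor of differentiated epithelium (0.89), Pde3a (0.88) and Thbs4 (0.88). B3gnt6 was closest to Galnt10, a GalNAc-transferase (0.83), Slc12a8 (0.82) and Tcta (0.80), and Gcnt3 to Hpgd, which breaks down prostaglandins (0.80), Mgat3, a GlcNAc-transferase of N-glycans (0.79) and Pigv (0.79). Galnt12 had B4galnt2, Mgst2 and Pcsk5 (each 0.84), and Fut2 had Trim15 (0.86), Gm11545 (0.84) and Plscr1 (0.83). For B3galt5 they were Cd209g (0.85), Atp2c2 (0.81) and Baiap2l1 (0.81), and for Galnt3 they were P4hb, a protein disulfide isomerase, Rab5if and Sema7a (0.78, 0.78 and 0.77). The lists of C1galt1 (Spry4 and Dpagt1 at 0.74, B3galt5 at 0.71) and C1galt1c1 (Nlrc4 at 0.69, Chfr at 0.68, Olfr32 at 0.67) began lower. These 30 correlations lay between 0.68 and 0.93 without replicate 3 of the treated Cygb-/- mice, and none moved by more than 0.045.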

How the data were processed

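Total RNA of the distal colon of 29 mice was hybridised to Affymetrix Mouse Gene arrays by the authors, 1 mouse an array. The authors deposited log2 values normalized between arrays with RMA (version not given in the sources used here), and these were used as deposited; scanner files were not used here. RMA compresses low signals, so folds of dim genes may be understated. Precision is set by how many arrays each group has. Among 41345 probe sets, 23525 name 1 gene, 1816 several and 16004 none in the platform annotation, and 1395 share their values with another probe set.

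Every probe set entered lmFit and eBayes of limma 3.58.1 (R 4.3.3). The tests were two-sided with Benjamini-Hochberg adjustment at 0.05, with 2 groups at a time, and all 4 for the interaction. The methods' Student's t-test with a 1.5-fold filter was an alternative. Single values were tested with exact permutation tests over arrays. The procedure was tested on simulated data. The 10 enzymes and all lists were chosen with earlier results of these data known, so their counts are descriptions. Named genes are the enzymes, from each other list up to 4 genes with the smallest p in WT mice, and the 3 genes most correlated with each enzyme. Hoxa13 and Hoxb13 come from the distal list, and St3gal4 was the second of its list. The labels call the arrays biological replicates. GRCm38.p6 tables of RefSeq gave chromosomes and promoters; the build behind the arrays is not given in the sources used here. The design text names 8 treated Cygb-/- arrays, and 5 were given. The 2 comparisons of treatment used different arrays, and the comparisons of genotype share arrays with them. Alternatives covered the normalization, scaling, dim probe sets, variance model, test, arrays in the fit, replicate numbers, probe sets and each array left out. The comparison with goblet cell markers, the marker means without Cdx2 or Retnlb, and part of the values without replicate 3 of the treated Cygb-/- mice were added after the data were seen.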

Additional observations from a re-analysis of the deposited data

Results flagged for a closer look

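In 4 of the 40 combinations of an enzyme and a group, 1 array stood apart from the rest of its group by Dixon's test at 95%, where chance gives about 1 in 20. C1galt1c1 was 6.19 in replicate 1 of the AOM/DSS-treated WT mice, below the next array at 6.46. B3gnt6 was 8.69 in replicate 2 of the untreated WT mice, below 9.19, and still well above every treated array. B3gnt7 was 9.51 in replicate 2 of the untreated Cygb-/- mice, below 9.99. Fut2 was 11.00 in replicate 5 of the untreated WT mice, above 10.84. The calls of C1galt1c1 and B3gnt6 in WT mice and of B3gnt7 in Cygb-/- mice were kept when any 1 array was left out. No enzyme passed the interaction test by limma (1 had an unadjusted p under 0.05).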

How the results depend on the processing

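B3gnt6, Gcnt3 and B4galnt2 stayed lower and past the threshold in both genotypes under all alternatives run, the array left out included. When arrays were centred on the epithelial markers, which moved the median of all probe sets to 0.30 in both genotypes and made 24378 of 25558 calls in WT and 21480 of 23117 in Cygb-/- mice higher ones (5152 of 11053 and 5224 of 10805 without centring), 3 enzymes were lower and 3 higher in WT mice, and 3 lower and 4 higher in Cygb-/- mice. C1galt1 then read 0.17 and 0.30. Without Cdx2 in this centring, an alternative chosen after seeing the data, the mean of the other epithelial markers fell by 0.11 and 0.14 in place of 0.34 in both genotypes, 7670 of 10621 and 8879 of 11828 calls were higher ones, 5 enzymes were lower in either genotype, and 0 were higher in WT and 1 in Cygb-/- mice. The calls of C1galt1 in WT (-0.06) and B3gnt7 in Cygb-/- mice (-0.31) were then lost. The methods' t-test with the fold filter left 3 lower and 0 higher enzymes in either genotype, since the filter removes smaller changes. Against the goblet cell markers the sign turned in WT mice for C1galt1 (0.28), C1galt1c1 (0.062) and Fut2 (0.29), and in Cygb-/- mice for C1galt1 (0.62), C1galt1c1 (0.16), B3gnt7 (0.21) and Galnt12 (0.16). Without Retnlb in that mean, also chosen after seeing the data, these values were 0.31, 0.084 and 0.31 in WT, and 0.49, 0.029, 0.075 and 0.025 in Cygb-/- mice. With each array left out, 5 to 7 enzymes were lower in WT and 6 in Cygb-/- mice. The call of C1galt1 in WT mice was lost without treated replicates 1, 2, 3 or 5 or untreated replicates 2, 3, 4, 6, 7 or 8, and that of B3gnt7 was gained without treated replicate 4 (adjusted p = 0.0456, range 0.0323 to 0.988). Whether equal replicate numbers mark pairs is not known. Residuals of arrays with the same number correlated at -0.01 and -0.02 on average for treatment in WT and Cygb-/- mice, with 0 pairs over 0.1. Between the genotypes they correlated at -0.05 in untreated (0 of 8 pairs over 0.1) and at 0.08 in inflamed colons (3 of 5). Arrays with unequal numbers were not compared in this way. With the replicate block, C1galt1 in WT mice (adjusted p = 0.0705) and B3gnt7 in Cygb-/- mice (adjusted p = 0.139) lost their calls and B3gnt7 in WT mice gained one (adjusted p = 0.0447). The mean of both B3gnt7 probe sets lost its call in Cygb-/- mice (adjusted p = 0.0591). The cause of these changes was not tested. Array signals without a detection call limit what can be said of B3gnt6 after treatment, when it lay between 4.55 and 6.09 beside array medians of 4.76 to 4.88.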
